A study of Gallus gallus with 4 samples.

Results

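The genes described here mark the presomitic mesoderm (PSM), the unsegmented tissue beside the chicken neural tube, and the somites that bud from it. They are MSGN1, TBX6, PCDH8, MEOX1, TCF15, PAX3, PAX9 and TBX18. The 8 symbols were chosen with earlier results of these data known. Their lookup in the platform annotation used no measured value and matched 9 of 37695 chicken probe sets. TCF15 had 2 probe sets and each of the other genes had 1. The annotation gave each of the 9 only 1 gene symbol, and whether any of them also reads transcripts of another gene was not tested. In all, the annotation named 13009 genes.

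Paraxial mesoderm arises from cells that leave the primitive streak and later the tail bud. On leaving they switch on MSGN1 and TBX6, which commit them to a presomitic fate, and at the anterior end of the PSM they form epithelial somites under TCF15 and MEOX1. Somites are then patterned into dermomyotome, where PAX3 is active, and sclerotome, where PAX9 is active.

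The RNA was taken from chicken embryos of 9 somites, from the part of the primitive streak where the progenitors of the PSM lie. Eggs were incubated for 24 h, the embryos were electroporated at stage 5 (Hamburger and Hamilton), and culture went on for another 14 h. In the HoxA13 group the vector, driven by the CAGGS promoter, coded for the posterior Hox protein HoxA13 and for an H2B-Venus nuclear reporter. In the control group it coded for H2B-Venus alone. Each group had 2 arrays, and each array held a pool of 7 embryos. Both groups were electroporated and carry the reporter, no unelectroporated group is in the series, and the labels mention no sorting of electroporated cells, so each value is an average over all cells dissected. In such bulk tissue, fewer cells of a type and less RNA per cell cannot be told apart.

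Whether a transcript was detected was judged against the array's own viral probe sets. These were taken to have no target in the embryos, which was not tested. Background was set at the 99th percentile of 687 viral probe sets. For the HoxA13 arrays this meant an intensity of 14.3 and 14.5, and for the controls of 12.8 and 16.5, with replicate 1 given before replicate 2 here and below. By this measure MSGN1 alone among the 8 genes was detected on all 4 arrays. MEOX1 and PAX9 were each detected on 3 arrays. TBX6, PCDH8, TCF15, PAX3 and TBX18, with 6 probe sets, were detected on none. Over all chicken probe sets, 31.7% were above background on all 4 arrays, 18.5% on 1 to 3 and 49.7% on none. The number on all 4 arrays rose from 1 to 2 when HoxA13 replicate 1 or control replicate 2 was left out, since each of these arrays alone held MEOX1 or PAX9 back. With the viral 95th percentile as background, MEOX1 and PAX9 joined MSGN1 on all 4 arrays. TBX6, PAX3, TBX18 and 1 TCF15 probe set then passed on 1 array each, and PCDH8 on none. With the brightest viral probe set as background, MSGN1 stayed detected on all 4 arrays, PAX9 on 2 and MEOX1 on 1.

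**Figure D1:**
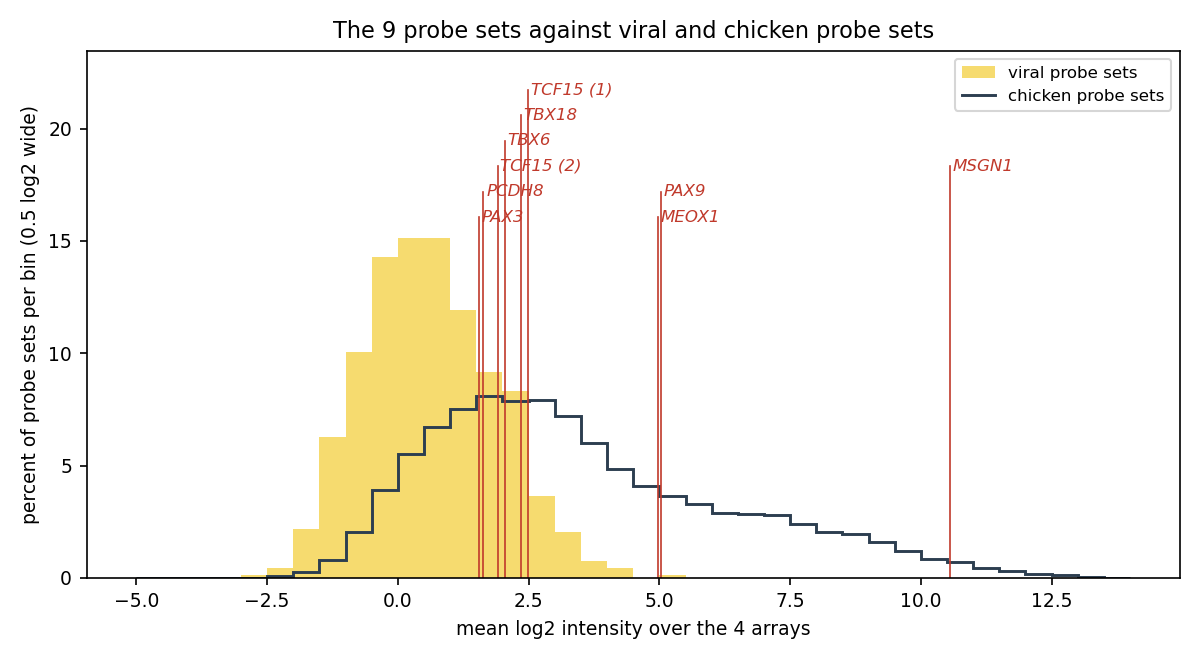
Share of viral (filled) and chicken (line) probe sets in bins of mean log2 intensity over the 4 arrays; red lines mark the 9 probe sets of the 8 genes, with a number where a gene has 2. MSGN1 lies at the bright end of the chicken probe sets, MEOX1 and PAX9 beyond nearly all viral probe sets, and the 6 others within the range of the viral ones.

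The presomitic genes differed in detection. MSGN1 codes for mesogenin, a basic helix-loop-helix factor that drives streak cells into the presomitic fate. Its intensity was 1399 and 1244 in the HoxA13 group, against 2040 and 1480 in the controls. Every array was far above background, and both HoxA13 arrays were below both controls, the brighter of them by a narrow margin. TBX6, the T-box factor that maintains presomitic identity against the neural fate (a role known from the mouse), gave 8.13 and 2.35 in the HoxA13 group and 11.0 and 1.39 in the controls. The annotation ties this probe set to the gene for which RefSeq lists Tbx6L as a synonym. The probe set may therefore not measure the orthologue of mouse TBX6. PCDH8, the protocadherin of the anterior PSM that helps to separate forming somites, gave 8.16 and 8.94 against 0.236 and 5.42. None of these TBX6 and PCDH8 readings passed background, and those of TBX6 overlapped between the groups. The PCDH8 readings did not overlap, but all 4 lay among those of the viral probe sets.

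Among the somite genes, MEOX1 and PAX9 had readings above background and went in opposite directions. MEOX1, a homeobox gene of the early somite that acts in its patterning and in sclerotome formation, gave 13.6 and 23.1 in the HoxA13 group. In the controls it gave 45.5 and 67.3. It passed background on both controls and on 1 of the 2 HoxA13 arrays, and the groups did not overlap. PAX9, a paired box gene of the sclerotome and of the foregut endoderm, gave 48.7 and 67.3 on the HoxA13 arrays and 23.9 and 14.7 on the controls. Here both HoxA13 arrays passed background and 1 of the 2 controls did, again without overlap between the groups.

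TCF15, PAX3 and TBX18 stayed below background on every array. TCF15 codes for paraxis, the basic helix-loop-helix factor needed for somites to become epithelial. Its 2 probe sets gave 1.83 and 7.78 against 6.40 and 10.8, and 2.33 and 6.15 against 2.37 and 5.80, in the order HoxA13 and then control. Both probe sets were thus undetected on the same 4 arrays. PAX3, the paired box gene of the dermomyotome that is also active in the dorsal neural tube and neural crest, gave 10.2 and 1.11 against 0.668 and 9.96. TBX18, a T-box gene of the anterior part of each somite and later of the heart and limb, gave 1.77 and 4.55 against 6.17 and 13.5. The readings of both TCF15 probe sets and of PAX3 overlapped between the groups, while those of TBX18 were lower on the HoxA13 arrays. Over the 6 undetected probe sets the 24 readings ran from 0.236 to 13.5, and 20 of them (83.3%) exceeded the median viral probe set of their array. The same was true of 64.7% of the readings of all 18748 chicken probe sets that passed background on no array. No array of the series gave a signal at any of these 6 probe sets, so the values cannot show how well each responds to its transcript, and the part of probe set performance was not tested.

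**Figure D2:**
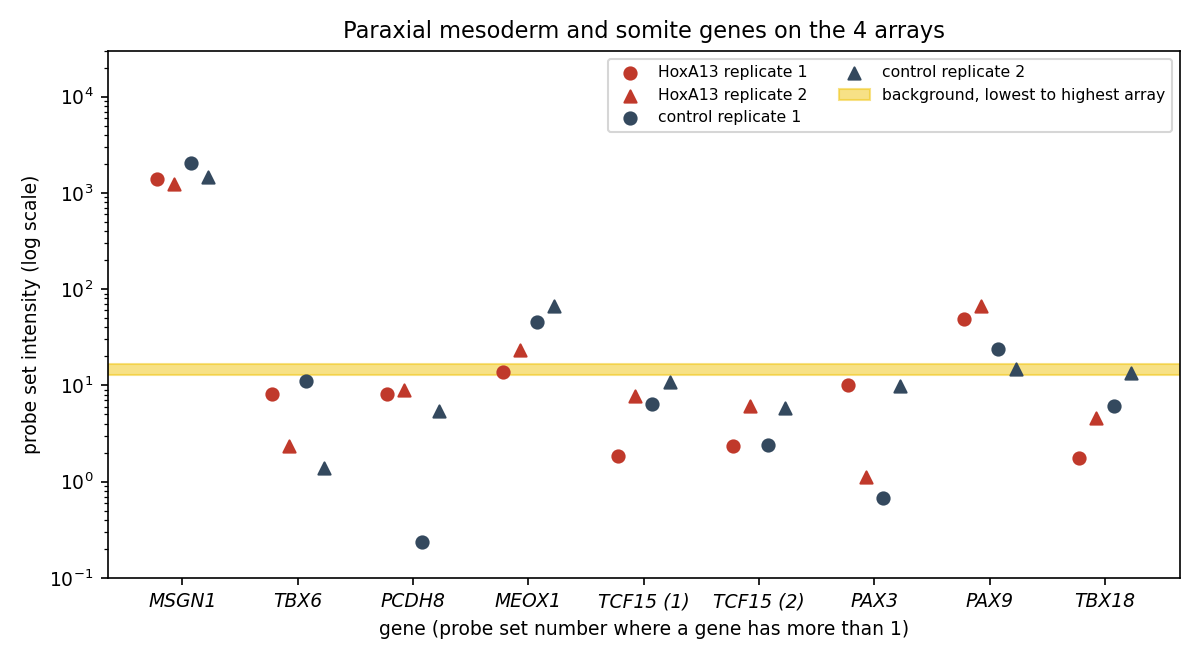
Intensity (log scale) of each probe set on the 4 arrays, with HoxA13 in red, control in dark blue, replicate 1 as circles and replicate 2 as triangles. The band spans the background of the 4 arrays, from 12.8 to 16.5. MSGN1 stands between 1244 and 2040, MEOX1 and PAX9 cross the band in opposite directions, and the 6 other probe sets reach at most 13.5.

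The design has 1 comparison, which asks what differs in this region when HoxA13 is overexpressed. Log2 intensities of all 37695 chicken probe sets were fitted with limma, and a probe set passed at a Benjamini-Hochberg adjusted p below 0.05. Of the 9 probe sets 0 rose and 0 fell, as among all chicken probe sets, of which 0% passed as higher and 0% as lower. At an unadjusted p under 0.05 were 2 of the 9, those of MEOX1 and PAX9, and 5.91% of all chicken probe sets. The groups did not overlap for 2 of the 9 as higher (PCDH8 and PAX9) and for 3 as lower (MSGN1, MEOX1 and TBX18). Over all chicken probe sets the groups were separate for 17% as higher and 16% as lower. Fits restricted to the 15818 probe sets above background on at least 2 arrays kept 3 of the 9 (MSGN1, MEOX1 and PAX9) and also called 0 of these. Among those 15818 the filter alone passed 0.00632% as lower. With an offset of 16 and trend and robust priors 0.019% passed as higher and 0.0632% as lower, and with the replicate number as a block besides, 0.335% and 0.676%. The median log2 difference was 0.03 over the 9 probe sets and 0.02 over all chicken probe sets, and 6 of the 9 were undetected. An exact two-sided permutation test of 2 arrays against 2 cannot give a p below 0.333, so no single gene could pass on that test.

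MSGN1 averaged 1321 ± 110 in the HoxA13 group and 1760 ± 396 in the controls (mean ± SD, n = 2 each). The log2 difference was -0.40 ± 0.44 (SE, limma adjusted p = 0.998), a geometric mean 1.32-fold lower, while the control replicates differed from each other by 1.38-fold. The 95% interval, from -1.62 to 0.83, leaves room for changes in either direction. Its width also draws on the spread of all probe sets fitted. With only probe sets above background on at least 2 arrays in the fit, the SE was 0.31. Without HoxA13 replicate 1, HoxA13 replicate 2, control replicate 1 or control replicate 2 in turn, the difference lay between -0.63 and -0.17. Its sign could not change there, since the groups did not overlap.

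MEOX1 averaged 18.3 ± 6.67 in the HoxA13 group and 56.4 ± 15.5 in the controls. Its log2 difference was -1.64 ± 0.52 (SE, unadjusted 95% interval from -3.11 to -0.18, limma adjusted p = 0.777), or 3.12-fold lower. The replicates of a group differed by 1.69-fold and 1.48-fold, less than the groups did. PAX9 averaged 58.0 ± 13.1 against 19.3 ± 6.55. Its log2 difference was 1.61 ± 0.50 (SE, unadjusted 95% interval from 0.21 to 3.01, limma adjusted p = 0.768), or 3.05-fold higher, and its replicates differed by 1.38-fold and 1.63-fold. For both genes the difference between groups was larger than that between replicates, and neither passed over all chicken probe sets. Both rest on intensities close to background in the dimmer group, where log2 values are least certain. The fitted log2 differences of the genes undetected in both groups compare background readings and are not read as folds.

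**Figure D3:**
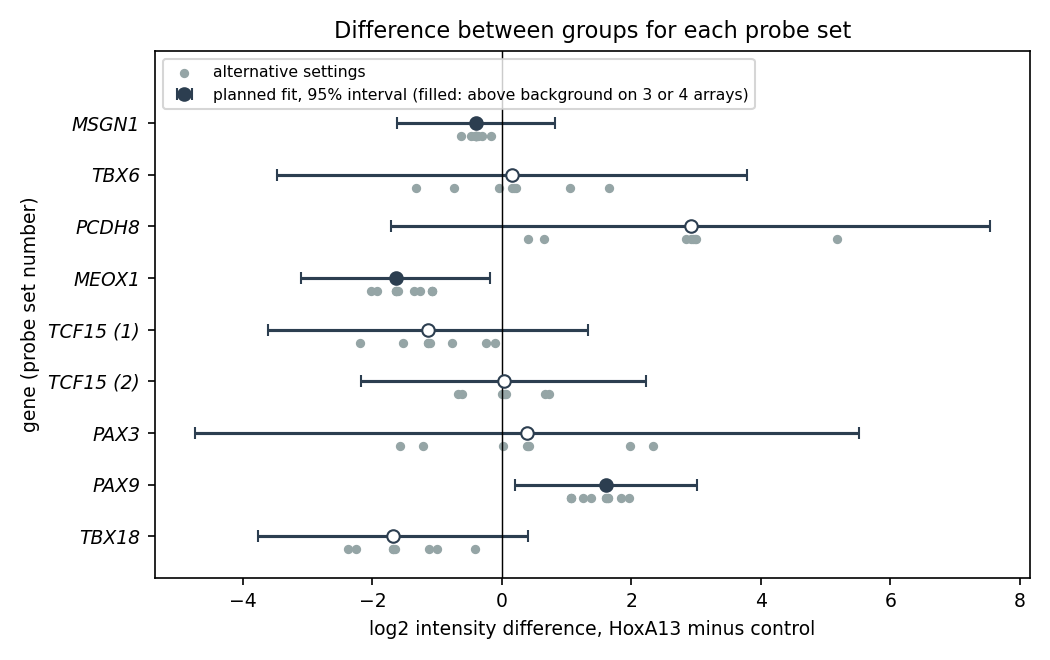
Log2 intensity difference, HoxA13 minus control, for each probe set with its unadjusted 95% interval from limma; filled circles mark probe sets above background on 3 or 4 arrays, open circles those above it on none, and grey points the alternative settings, some of them on the log2(intensity + 16) scale. MEOX1 at -1.64 and PAX9 at 1.61 keep their side of 0 in every setting drawn. Because their groups do not overlap, only the changes of normalisation could have moved them across. MSGN1 at -0.40 lies close to 0, and the intervals of the undetected probe sets are wide.

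Other genes of the PSM and of the segmentation clock, the oscillator that sets the pace of somite formation, were often detected. The probe sets annotated as TBX6 and PCDH8 were not. Of 16 measured genes of that list, each represented by its brightest probe set, 9 were above background on all 4 arrays, 3 on some and 4 on none. Over all chicken probe sets, 31.7% were above it on all 4 arrays and 49.7% on none. Those shares count every probe set, whereas taking the brightest of a gene, here and below, favours detection. None rose or fell (0 in each direction, with 0 at an unadjusted p under 0.05, limma), and the list's median log2 difference was 0.04. LFNG, the glycosyltransferase that modifies Notch in the clock, gave 1602 and 2135 on the HoxA13 arrays and 972 and 1611 on the controls. DLL1, the Notch ligand of the PSM, gave 1888 and 934 against 2023 and 492. Both sets of readings overlapped between the groups, and at this DLL1 probe set the replicate 2 arrays were the dimmer in each group. The other detected DLL1 probe set gave 131 and 94.6 against 124 and 254, with control replicate 2 the brightest. NOTCH1, its receptor, gave 258 and 266 against 313 and 311, and SNAI2, a zinc finger gene of migrating mesoderm and neural crest, 551 and 531 against 384 and 441.

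Some members of the same list act at the anterior border of the PSM. MESP1, a basic helix-loop-helix gene that marks the next somite to form, passed background on all 4 arrays with 37.1 and 15.4 against 17.2 and 34.5, with overlapping groups. With the brightest viral probe set as background, this probe set passed on 1 array. The other MESP1 probe set, at 14.6 and 14.8 against 15.9 and 2.97, passed the 99th percentile on 3 arrays. RIPPLY1 and RIPPLY2, repressors that close the presomitic programme at the border, were above background on no array. EPHA4, an Eph receptor of the border, passed on 3 arrays and its partner EFNB2 on none. The members of this list with the smallest p were HES5, a Notch target, and JAG1, a Notch ligand. HES5 gave 115 and 125 against 99.4 and 49.6, with a limma adjusted p of 0.989. The other HES5 probe set, above background on no array, went the other way, with 5.63 and 5.10 against 10.5 and 8.76. JAG1 gave 12.8 and 5.57, both below background, against 22.0 and 33.6. With background in place of both HoxA13 readings, their geometric mean was 1.89-fold lower. The fitted log2 difference had an unadjusted 95% interval from -3.43 to 0.06 (limma adjusted p = 0.857). The other JAG1 probe sets were above background on no array.

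Of the genes of formed and differentiating somites, none passed background on all 4 arrays, and most passed on no array, as did TCF15, PAX3 and TBX18. The share of all chicken probe sets on no array was 49.7%, with every probe set counted rather than the brightest of a gene. Of 7 measured genes of the epithelial somite and sclerotome, 0 were above background on all 4 arrays, 2 on some (MEOX2 on 1 array and SCX on 3) and 5 on none. SCX, a tendon progenitor gene, gave 22.5 and 10.9 against 31.5 and 53.8 (limma adjusted p = 0.941). It was lower without overlap, as were MEOX1 and 16% of all chicken probe sets. TWIST1, with at most 5.41 on any array, FOXC1, FOXC2, NKX3-2 and SOX9 were undetected. Of 9 measured genes of the dermomyotome and myotome, 0 were above background on all 4 arrays, 2 on 1 array each (the muscle regulators MYF5 and MYF6) and 7 on none, PAX7, the closest relative of PAX3, among them. MYOD1 and MYOG, the muscle regulators with the smallest p of that list, reached 5.68 and 11.4. In both lists 0 genes rose and 0 fell, and 0 had an unadjusted p under 0.05 (limma). The median log2 difference was -1.40 in the sclerotome list, of mostly undetected genes, and 0.06 in the dermomyotome and myotome list.

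**Figure D4:**
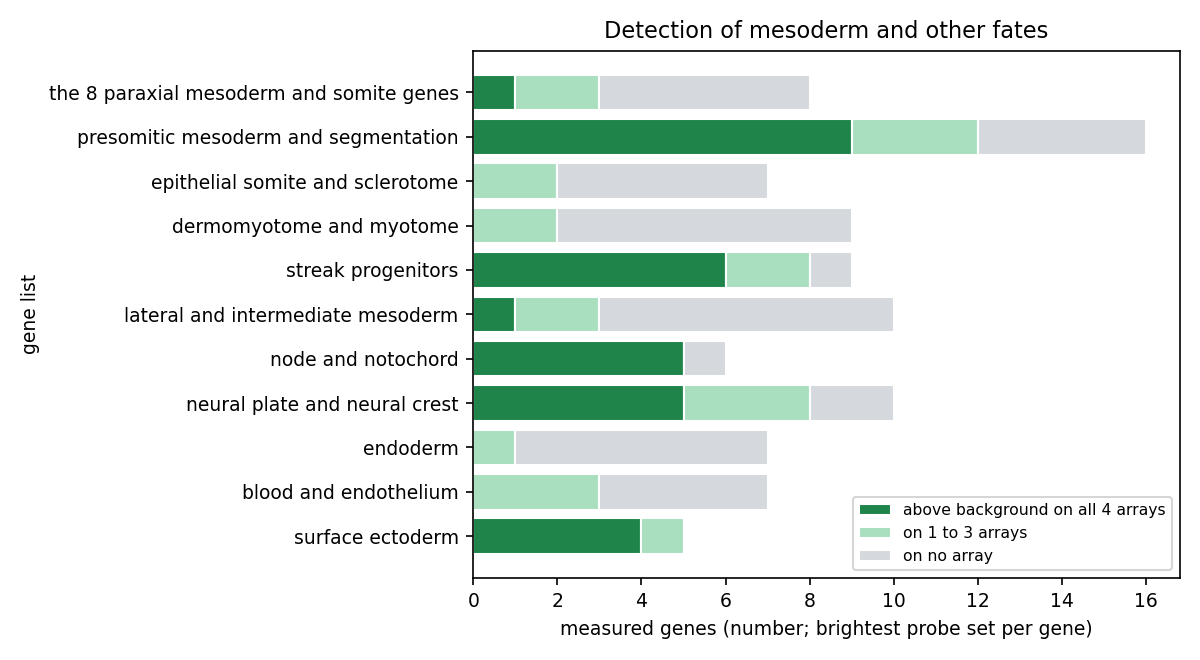
Number of measured genes per list that were above background on all 4 arrays (dark green), on 1 to 3 (light green) and on none (grey), each gene by its brightest probe set. Segmentation, streak, node, neural and surface ectoderm lists hold most of the genes detected on all 4 arrays; the somite lists and the endoderm and blood lists hold 0 such genes.

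The labelled tissue, the progenitors of the PSM, was checked on genes of the streak. Of 9 measured, 6 were above background on all 4 arrays, 2 on some and 1 on none. TBXT, the T-box gene that defines the streak, gave 6483 and 5820 against 5873 and 5508, and CDX4, a caudal homeobox gene, 3200 and 2783 against 2458 and 1928. WNT3A, the Wnt ligand of the progenitors, gave 1446 and 1950 against 1315 and 1270. The other WNT3A probe set, also above background on all 4 arrays, gave 459 and 330 against 488 and 356, with overlap. FGF8 (1411 and 1637 against 637 and 545) and EVX1 had the smallest p of the list, 0 of the 9 rose or fell, and the 2 had an unadjusted p under 0.05 (limma adjusted p = 0.756 and 0.739). The list's median log2 difference was 0.41. FGF4, a growth factor of the streak, passed on 3 arrays and EOMES, a T-box gene of early streak mesoderm, on 2. MIXL1, a homeobox gene of the early streak, passed on none.

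Markers of neighbouring tissues were read because several of the genes are also active there. Of 10 measured genes of lateral and intermediate mesoderm 1 was above background on all 4 arrays, PRRX1, a homeobox gene of lateral mesoderm. It gave 16.6 and 29.9 against 109 and 113 (limma adjusted p = 0.633), lower without overlap, as were MEOX1 and 16% of all chicken probe sets. Another PRRX1 probe set gave 13.4 and 13.4 against 24.9 and 29.9, and a further one 14.0 and 5.86 against 44.8 and 70.8. Both passed background on the 2 controls alone, so detection of PRRX1 on the HoxA13 arrays depended on the probe set. GATA5 and PAX2 passed on 1 control array each, and 7 genes, GATA4 and GATA6 among them, on none. GATA6 had the smallest p of the list, with 2.76 and 2.53 against 10.8 and 15.8 (limma adjusted p = 0.620). These GATA6 readings were all below background. The summed intensity of the 10 genes was 60.3 and 78.0 in the HoxA13 group and 164 and 211 in the controls, where PRRX1 made up most of it. Without PRRX1 the sums were 43.7 and 48.1 against 54.4 and 97.7. In the list 3 genes had an unadjusted p under 0.05. Of 7 endoderm genes 1 passed background on any array, HHEX, with 44.2 and 9.39 against 336 and 419 (limma adjusted p = 0.631), and the list summed to 73.0 and 24.7 against 369 and 439. Without HHEX the sums were 28.8 and 15.3 against 32.6 and 19.6 and overlapped. SOX17 and FOXA1, which define endoderm, were undetected on all 4 arrays, while FOXA2, active in endoderm and node and counted with the node here, passed on all 4. HHEX was lower and PAX9 higher on the HoxA13 arrays. Both are known from the foregut, and the part of endoderm in either value was not tested. Of 7 blood and endothelial genes 0 were above background on all 4 arrays and 3 on some, with sums of 53.8 and 41.0 against 64.8 and 81.3. Apart from PRRX1 and HHEX, the sums of these 3 lists add mostly readings below or near background. They are not read as levels of a tissue. The median log2 differences of these 3 lists, of mostly undetected genes, were -0.89, -0.42 and -0.61, and 0 of their genes passed the test. Their part in the MEOX1 difference was not tested.

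Genes of the ectoderm and of the axial mesoderm were also read. Of 10 neural plate and neural crest genes 5 were above background on all 4 arrays, and the list summed to 1808 and 1842 against 1376 and 1390, higher on both HoxA13 arrays as PAX9 was. MSX1, a homeobox gene of the neural plate border and caudal mesoderm, gave 724 and 1006 against 647 and 503. Without MSX1 the sums were 1084 and 836 against 729 and 886, with overlap. FOXD3 and ZIC1, genes of the neural crest and dorsal neural tube where PAX3 can be active, were undetected on all 4 arrays, as PAX3 was. They were the only 2 of the 10 above background on no array. MSX2, ZIC2 and TFAP2A of the same list passed on all 4 arrays, as MSX1 did. Of 5 surface ectoderm genes 4 passed on all 4 arrays, with sums of 2161 and 1277 against 3041 and 2278, and EPCAM, an epithelial adhesion gene, gave 1576 and 1029 against 2603 and 1687. At this probe set the EPCAM groups did not overlap, lower on the HoxA13 arrays like MSGN1, MEOX1 and 16% of all chicken probe sets. Another EPCAM probe set was also separate, with 129 and 127 against 355 and 257. A further EPCAM probe set overlapped, with 202 and 76.7 against 380 and 94.5. Without EPCAM the sums were 585 and 248 against 438 and 591, which overlapped. Of 6 node and notochord genes 5 passed on all 4 arrays and SHH on none, with sums of 272 and 317 against 190 and 274 that overlapped. The median log2 differences were 0.57 for the neural, -0.39 for the surface ectoderm and 0.04 for the node list. In these 3 lists 0 genes rose or fell and 1 had an unadjusted p under 0.05 (PAX6). The part of these tissues in the values of PAX3, PAX9, MSGN1 and MEOX1 was not tested.

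The probe sets whose pattern over the 4 arrays was closest to that of MSGN1 were found among 9606 named probe sets above background on every array. Likeness was the root mean square difference of log2 intensities, each centred on its own mean. WWC3 was closest, at 0.026, with 273 and 241 against 415 and 293. WDR20 followed at 0.034 and CDK13 at 0.036. With only 4 arrays and so many candidates this describes the arrays and says nothing of shared control.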

How the data were processed

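The authors deposited a linear intensity for each probe set of an Affymetrix chicken array. Total RNA was labelled after a double amplification, per the labels' protocols. R 2.12.1 is the only tool in the submitters' processing notes. How the authors summarised, background-corrected and scaled the intensities is not given in the sources used here. All values were above 0, and every column belonged to a sample. The arrays' number limits the precision. The p-values set each difference against a spread between pools of 7 embryos that limma moderates. For each probe set it draws the spread towards that of all probe sets fitted. In the planned fit 49.7% of these were above background on no array. The SE, interval and p of a gene are therefore not a measure of its own spread between pools alone.

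Log2 intensities of 37695 chicken probe sets were fitted with limma 3.58.1 (lmFit, eBayes) in R 4.3.3, HoxA13 minus control. The code was checked on simulated data with large planted changes. Their spread was set rather than taken from these arrays, so the check does not show the power of the fit here. Viral (687), reporter (57) and other control (96) probe sets stayed out. Gene names came from the platform annotation, which gave 1 symbol to 27168 chicken probe sets, several to 177 and none to 10350. RefSeq's gene table supplied synonyms. The 8 genes and the 10 other lists were chosen with earlier results of these data known. The text names every probe set of the 8 genes and, per list, genes with the highest mean level or smallest p, and undetected defining markers. MESP1, EPHA4, EFNB2, RIPPLY1 and RIPPLY2 were named after their values were seen. Alternatives changed the scale, filter, prior, normalisation, block, arrays and background.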

Additional observations from a re-analysis of the deposited data

How the results depend on the processing

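The number of the 9 probe sets that passed was 0 in the planned fit and 0 under all 11 alternatives run (an offset of 16, a filter on at least 2 arrays above background, both with trend and robust priors, the replicate block with and without them, quantile normalisation, median centring and each array left out). The filter kept only MSGN1, MEOX1 and PAX9, and MEOX1 and PAX9 passed it through their brighter group. Over all chicken probe sets the planned fit gave 0 higher and 0 lower, the filter alone 0 and 1, the offset, filter and priors together 3 and 10, and these with the replicate block 53 and 107. In that blocked fit the limma adjusted p was 0.304 for MSGN1, 0.0853 for MEOX1 and 0.111 for PAX9. The labels do not tie replicate numbers to a shared day or batch. Deviations of equally numbered arrays correlated at 0.30 across 15818 probe sets. Replicate 2 arrays were brighter than replicate 1 arrays at 27 of 27 hybridisation spike-in probe sets. Many of these read the same few spiked transcripts, so they are not 27 independent readings. Over the alternatives the log2 difference ran from -0.63 to -0.17 for MSGN1 and from -2.02 to -1.07 for MEOX1. That of PAX9 ran from 1.07 to 1.96. For each of these genes the limma adjusted p was lowest in the blocked fit. Since their groups did not overlap, the offset, filter, block or removal of an array could not change the direction. Only quantile normalisation and median centring could have, and did not. The number above background on all 4 arrays was 1, became 3 at the 95th percentile, and ranged from 1 to 2 with an array left out. Among undetected probe sets the direction reversed for TBX6 (-0.0425 with the offset, and from -1.33 to 1.65 with an array left out), for the second TCF15 probe set (from -0.67 to 0.73) and for PAX3 (from -1.57 to 2.33). The readings of each of these probe sets overlapped between the groups, so leaving out an array could change the sign. The plain TBX6 means, 5.24 for HoxA13 and 6.20 for control, already ran against the log2 fit without the offset. Below about 13 to 17 in intensity these arrays do not separate a chicken transcript from the viral background.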
